A study of Mus musculus with 12 samples.

Results

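The Bcl-2 family genes described here are Bcl2, Bcl2l1, Mcl1, Bak1, Bok, Bcl2l11, Bid, Bad, Bik and Bmf, the guardians, effectors and BH3-only genes that are not usually counted among the p53 targets. They were chosen by symbol, as members of the family, with no threshold on their measured values, and all 10 were found among the 18193 genes of the array that carry 1 symbol. The list takes in 34 probe sets of the 45101 in the table, and of those belonging to a gene, the one brightest on average over the 12 arrays stands for it. All 10 genes passed the filter on low values that left 13501 genes to test.

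Proteins of the Bcl-2 family decide whether the outer membrane of the mitochondrion is opened during apoptosis. Guardians such as Bcl-2, Bcl-xL and Mcl-1 keep the membrane closed, effectors such as Bak open it and release cytochrome c, and BH3-only proteins carry death signals by occupying the guardians or by switching on the effectors. In the mouse embryo the family sets how many cells die as the limbs, the nervous system and the blood are formed. p53, which is switched on by damaged or unprotected telomeres, is best known to act on this family through the genes of Bax, Puma and Noxa, which are not in the list.

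Whole mouse embryos at E10.5 gave the RNA for 12 Affymetrix 3' arrays, 3 of each of 4 genotypes. Double mutants were homozygous for acd and lacked p53 (Acdacd/acd, p53-/-), acd mutants were homozygous for acd with p53 intact (Acdacd/acd), p53 mutants lacked p53 (p53-/-), and wt embryos carried neither change. TPP1, the product of Acd, belongs to the shelterin complex on telomeres, and the design asks which part of the acd response needs p53. The labels describe neither allele nor the strain, and they do not say whether an array holds 1 embryo or several. Each array holds many cell types, so fewer cells of a type and less RNA per cell cannot be told apart.

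Values are RMA log2 values, so a difference of 1 is a doubling, and levels of different probe sets cannot be set against each other. Array medians lay between 5.325 and 5.401. Acd itself measured 8.36 ± 0.11 in double mutants, 8.26 ± 0.05 in acd embryos, 8.91 ± 0.12 in p53 embryos and 8.99 ± 0.01 in wt (SD, n = 3 each), and no acd or double mutant array reached the level of a wt or p53 array. Double mutant replicates 1 and 2 stood apart from the other arrays, with median correlations of 0.972 and 0.987 to the remaining arrays, where no other array had less than 0.995. The interferon response markers, of which 11 of 13 were measured, lay on average 4.13, 3.63 and 0.20 above the wt mean in double mutant replicates 1, 2 and 3, against 0.13 to 0.24 in acd and -0.01 to 0.12 in p53 embryos. The macrophage markers (14 of 14 measured) lay at 1.45, 0.98 and -0.23 in the same double mutants, against -0.29 to 0.13 in acd, -0.18 to 0.18 in p53 and -0.09 to 0.11 in wt arrays. The p53 targets Ccng1 and Cdkn1a measured 8.34 and 8.02 in acd replicate 1, 10.16 and 8.83 in acd replicate 2 and 10.34 and 8.99 in acd replicate 3, against 8.75 to 9.26 and 8.04 to 8.09 in wt. Replicate 1 of acd thus lay among the p53 arrays, which held 8.32 to 8.54 and 7.92 to 8.04, although its label gives p53 as intact, and acd against wt is given below also without it. Y-linked transcripts were present in 1 of 3 double mutant, 3 of 3 acd, 3 of 3 p53 and 1 of 3 wt arrays. Visceral endoderm and liver markers (10 of 10 measured) lay at 1.45, 1.31 and 0.29 in the double mutants, against 0.27 to 0.40 in acd and -0.08 to 0.12 in wt arrays. In p53 replicate 2 they lay at 1.32. Heart muscle markers (7 of 7) lay at -0.12, -0.14 and -0.76 in the double mutants. Neuron markers (11 of 11) lay at 0.17, 0.61 and -0.12 there, against -0.51 to -0.02 in acd, -0.26 to 0.10 in p53 and -0.08 to 0.13 in wt arrays. The part of interferon, macrophages, liver, heart, neurons or sex in the results below was not tested. The double mutant differences that moved most are given also without the arrays that stand apart. Markers of heart muscle (7 of 7), neurons (11 of 11), endothelium (6 of 6) and primitive erythroid cells (9 of 9 measured) passed the filter, as the label of whole embryos asks.

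None of the 10 genes passed the test in any of the 6 comparisons. The test was limma with Benjamini-Hochberg adjustment over all 13501 genes at an adjusted p of 0.05. For acd against wt the share of all genes that passed was 0.0148%, for p53 against wt 0%, for double against p53 0.00741%, for double against acd 0%, for double against wt 0.0148% and for the interaction 0%, so a count of 0 among 10 members is what these shares would give. At an unadjusted p under 0.05 the members numbered 0 in acd against wt (1.77% of all genes), 0 in p53 against wt (0.726%), 5 in double against p53 (10.7%), 1 in double against acd (12.6%), 2 in double against wt (11.1%) and 0 in the interaction (3.93%). The median log2 difference of the 10 members was -0.00 in acd against wt, 0.05 in p53 against wt, -0.07 in double against p53, -0.05 in double against acd, -0.08 in double against wt and -0.09 in the interaction, where all tested genes had medians of -0.01 to -0.00. In the interaction 3 members lay above 0 and 7 below. The comparisons with wt share their wt arrays, and those of double mutants share the double mutant arrays.

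**Figure D1:**
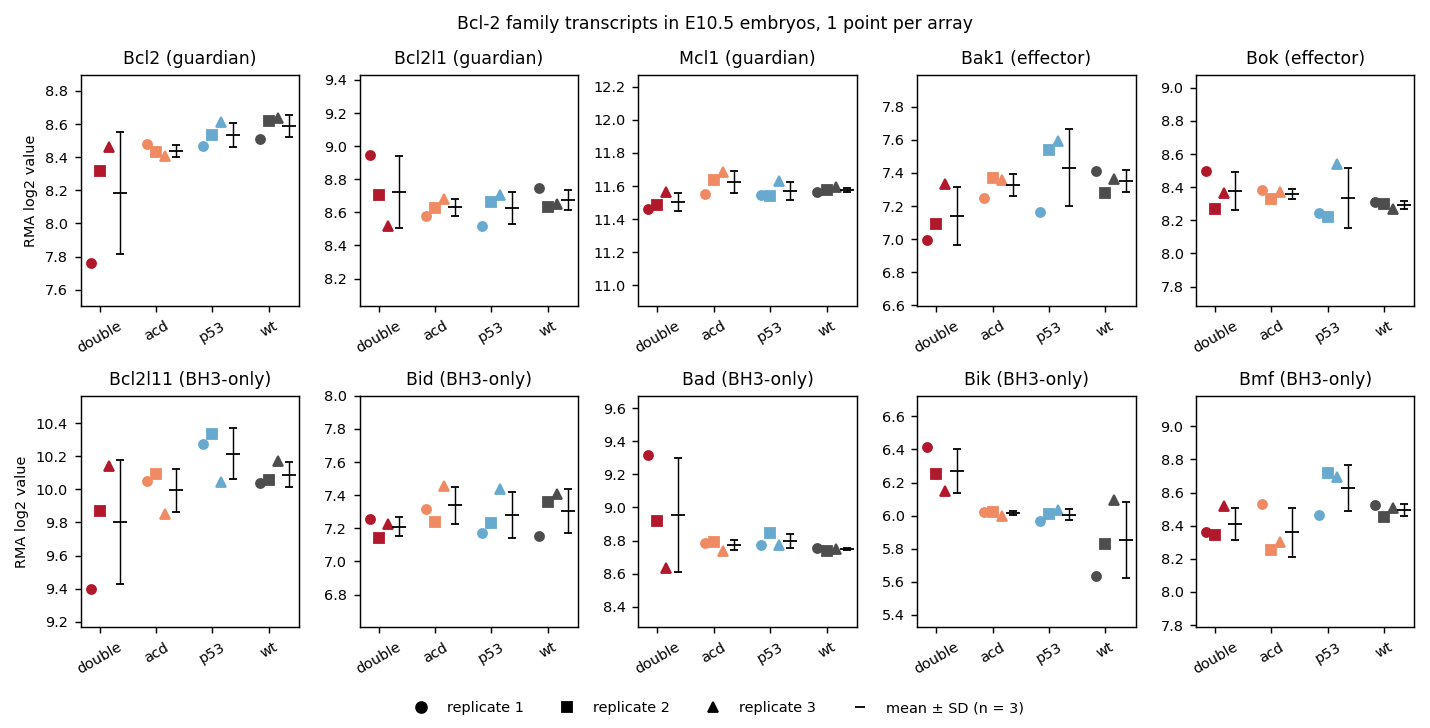
RMA log2 value (vertical axis, the same span of 1.4 in every panel) of each of the 10 genes on each array, by genotype along the horizontal axis; the bars beside the points are mean ± SD (n = 3). Double mutant replicate 1 lies farthest out for Bcl2, Bcl2l11 and Bad.

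Among the guardians, Bcl2 (chromosome 1) encodes the founding member of the family, which keeps neurons, kidney precursors and melanocyte precursors alive in mice. Bcl2 measured 7.76, 8.32 and 8.46 in the double mutants, 8.48, 8.43 and 8.41 in the acd embryos, 8.46, 8.53 and 8.61 in the p53 embryos and 8.51, 8.62 and 8.64 in wt. Every double mutant array was below every p53 and wt array, replicate 3 by less than 0.01 below the lowest p53 array, and replicate 1 was far below the others. The acd arrays were also all below the wt arrays, with a log2 difference of -0.15 ± 0.14 (SE, limma unadjusted p = 0.316), and of -0.17 without acd replicate 1. With sex as a term the direction turned, to 0.10 in acd against wt and to 0.20 in p53 against wt. Groups that do not overlap in that direction are found for 9.86% of all genes in acd against wt, for 5.01% in double against p53 and for 8.24% in double against wt. Bcl2 measured -0.36 ± 0.14 in double against p53 (95% interval -0.67 to -0.04) and -0.41 ± 0.14 in double against wt (-0.72 to -0.10), with limma adjusted p of 0.463 and 0.447. Without double mutant replicate 1 these differences were -0.15 and -0.20. Without replicate 3 they were -0.50 and -0.55 and passed (adjusted p 0.0347 and 0.0246), in fits where 13% and 12.2% of all genes passed.

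Bcl2 has 5 probe sets. On the 2 that, beside the one used, lay above the median on at least 11 arrays, double mutants measured -0.25 and -0.32 against wt. On the 2 below the medians on every array they measured 0.06 and 0.15. The 3 brighter probe sets thus gave the same direction against wt, and the 2 dim ones the other.

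Bcl2l1 (chromosome 2) encodes Bcl-xL, which keeps young erythroid cells and newborn neurons alive in the mouse embryo. It measured 8.95, 8.70 and 8.52 in the double mutants, 8.58, 8.63 and 8.68 in acd, 8.52, 8.66 and 8.70 in p53 and 8.74, 8.63 and 8.65 in wt. The genotypes overlapped, and double mutants spanned the range on both sides. The largest difference between genotypes was 0.10 ± 0.10 in double against p53 (interval -0.13 to 0.32, limma adjusted p = 0.668). The interaction measured 0.14 ± 0.15. Erythroid markers (9 of 11 measured) lay at 0.64, 0.24 and -0.39 relative to the wt mean in double mutant replicates 1, 2 and 3. Among these 3 arrays the order was that of Bcl2l1. Over all 12 arrays the markers were lowest in p53 replicate 3 (-0.41), where Bcl2l1 measured 8.70. In acd replicate 2 they lay at 0.50, where Bcl2l1 measured 8.63. The part of erythroid cells in the spread of Bcl2l1 was not tested. The other 3 probe sets of Bcl2l1 lay below the array medians on all arrays.

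Mcl1 (chromosome 3) encodes a short-lived guardian that mouse embryos need before implantation. Its values were the steadiest of the 3 guardians, at 11.46, 11.48 and 11.56 in the double mutants, 11.55, 11.64 and 11.69 in acd, 11.54, 11.54 and 11.63 in p53 and 11.56, 11.58 and 11.59 in wt. All double mutant arrays were below all wt arrays, replicate 3 by less than 0.01, and the log2 difference was -0.08 ± 0.07 (interval -0.22 to 0.07), while 8.24% of all genes lay lower without overlap. With replicate 3 as the only double mutant it was -0.02. The difference in acd against wt was 0.05 ± 0.07 (interval -0.10 to 0.20), and 0.08 without acd replicate 1. Mcl1 has 6 probe sets, all above the medians on every array. Double against wt lay between -0.16 and 0.00 on them. For acd against wt they gave -0.09 to 0.11, so that direction was not shared.

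Among the effectors, Bak1 (chromosome 17) encodes Bak, which sits in the outer membrane and forms the pore. It measured 6.995, 7.09 and 7.33 in the double mutants, 7.25, 7.37 and 7.36 in acd, 7.17, 7.54 and 7.59 in p53 and 7.41, 7.28 and 7.37 in wt. Double mutant replicates 1 and 2 held the lowest values of all arrays, and replicate 3 lay among the acd and wt values. The p53 arrays also differed among themselves, with replicate 1 below every acd and wt array. Double against p53 measured -0.29 ± 0.12 (interval -0.55 to -0.03, unadjusted p = 0.0312, limma adjusted p = 0.463). It measured -0.39 without double mutant replicate 3 (adjusted p = 0.0542) and -0.10 with replicate 3 as the only double mutant.

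Bok (chromosome 1) encodes a relative of Bak that acts in large part at the endoplasmic reticulum. Bok measured 8.50, 8.27 and 8.36 in the double mutants, 8.39, 8.33 and 8.37 in acd, 8.24, 8.22 and 8.54 in p53 and 8.31, 8.30 and 8.27 in wt. The acd arrays were all above the wt arrays, by 0.07 ± 0.09, while 7.24% of all genes had such a gap. It was read by 1 probe set, and no comparison had an unadjusted p under 0.386.

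Among the BH3-only genes, Bcl2l11 (chromosome 2) encodes Bim, which binds every guardian and removes self-reactive lymphocytes and neurons deprived of growth factors in mice. FoxO transcription factors are known to switch it on. The window around 1 of its 2 annotated gene starts holds the FoxO core motif TGTTTAC, 227 bases upstream of the start, and is printed to show that element. It lies at chr2:128125788-128126087 on the plus strand of GRCm38.p6, from RefSeq, runs from 250 bases before to 50 bases after the start, and has the motif in capitals.
Bcl2l11: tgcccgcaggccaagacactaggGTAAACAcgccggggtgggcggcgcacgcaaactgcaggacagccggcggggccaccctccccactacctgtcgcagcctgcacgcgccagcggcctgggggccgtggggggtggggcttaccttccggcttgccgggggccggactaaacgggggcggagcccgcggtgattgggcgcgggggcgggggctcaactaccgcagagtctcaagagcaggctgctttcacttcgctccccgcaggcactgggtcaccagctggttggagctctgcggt
Searched on both strands, the motif was found in 1 of the 15 start windows of 9 members and in 3.65% of all 32851 start windows. No window was given for Bik.

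Bcl2l11 measured 9.40, 9.87 and 10.14 in the double mutants, 10.05, 10.09 and 9.85 in acd, 10.27, 10.33 and 10.04 in p53 and 10.04, 10.05 and 10.17 in wt. Double mutant replicate 1 was the lowest array, and replicate 3 lay among the wt values. Double against p53 measured -0.41 ± 0.16 (interval -0.76 to -0.07, unadjusted p = 0.0233, limma adjusted p = 0.463), the largest of the 10 members in that comparison. It was -0.21 without double mutant replicate 1 and -0.58 without replicate 3, where it passed (adjusted p = 0.0234; 13% of all genes passed). With replicate 3 as the only double mutant it was -0.07, and against acd and wt it was then 0.15 and 0.05, so the direction of both turned. On all 5 probe sets double mutants lay below p53 embryos, with log2 differences of -0.45 to -0.01. Of the FoxO genes in the list of transcription factors, none passed in any comparison.

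Bmf (chromosome 2) encodes a BH3-only protein held on the actin cytoskeleton and freed when cells detach. Its values were 8.36, 8.34 and 8.52 in the double mutants, 8.53, 8.25 and 8.30 in acd, 8.47, 8.72 and 8.69 in p53 and 8.52, 8.46 and 8.51 in wt. The groups overlapped in each comparison. Double against p53 measured -0.22 ± 0.10 (interval -0.43 to -0.01, unadjusted p = 0.0454, limma adjusted p = 0.463), while acd against wt measured -0.14 ± 0.10 and p53 against wt 0.13 ± 0.10. With replicate 3 as the only double mutant, double against p53 was -0.11. 1 of the 3 annotated gene starts of Bmf has a match to a single p53 decamer, 213 bases upstream, which is shown in capitals because the genotypes differ in p53. This window lies at chr2:118544538-118544837 on the minus strand of GRCm38.p6, is taken from RefSeq and is written 5′ to 3′ along the gene.
Bmf: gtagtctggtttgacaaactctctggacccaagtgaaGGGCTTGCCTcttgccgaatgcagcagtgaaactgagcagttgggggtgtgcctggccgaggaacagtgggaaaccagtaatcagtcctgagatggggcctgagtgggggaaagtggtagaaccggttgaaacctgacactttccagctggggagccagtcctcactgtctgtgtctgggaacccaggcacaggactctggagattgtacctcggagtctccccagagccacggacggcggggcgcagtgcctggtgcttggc
Full p53 elements hold a pair of such decamers, and only the single decamer was searched, on both strands. It was found in 8.36% of all 32851 start windows and in 1 of the 15 windows of 9 members. A match in such a window is a description of letters, not a bound site.

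Bad (chromosome 19) encodes a BH3-only protein that growth factor signalling keeps phosphorylated and inactive. It measured 9.32, 8.92 and 8.63 in the double mutants, 8.78, 8.79 and 8.74 in acd, 8.78, 8.85 and 8.77 in p53 and 8.76, 8.74 and 8.75 in wt. The 9 arrays of the other genotypes lay between 8.74 and 8.85, and the 3 wt arrays had an SD of 0.00793. Replicates 1 and 2 of the double mutants were the highest of all arrays, and replicate 3 was the lowest. Double against wt measured 0.21 ± 0.13 (interval -0.08 to 0.50, limma adjusted p = 0.505). Without double mutant replicate 3 it was 0.37 and passed (adjusted p = 0.0398; 12.2% of all genes passed), and so did double against acd at 0.35 (adjusted p = 0.0456; 13.9%). Without replicate 1 they were 0.03 and 0.01. The second probe set of Bad measured 0.38 in double against wt and placed replicates 1 and 2, at 9.36 and 8.68, above the other arrays as well. On it replicate 3, at 8.41, lay within the 8.31 to 8.51 of the other genotypes, so its low place was not shared.

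Bik (chromosome 15) encodes a BH3-only protein found at the endoplasmic reticulum. Its values, close above the array medians, were 6.41, 6.25 and 6.15 in the double mutants, 6.02, 6.02 and 6.00025 in acd, 5.97, 6.01 and 6.04 in p53 and 5.64, 5.83 and 6.09 in wt. All 3 double mutants, replicate 3 included, were above all 9 other arrays. Such a gap to wt in that direction is found for 4.96% of all genes, to p53 for 3.29% and to acd for 4.41%, where 6.9% of all genes and 0 members lay lower than acd without overlap. Over all members and comparisons, Bik in double against wt had the smallest p-value (0.42 ± 0.11, interval 0.18 to 0.65, limma unadjusted p = 0.00238, adjusted p = 0.447). With replicate 3 as the only double mutant it was 0.30, and without wt replicate 1 it was 0.31. It passed without double mutant replicate 3 (0.48, adjusted p = 0.0242) and with array weights (0.42, adjusted p = 0.0399; 13.4% of all genes passed). The probe set used is one that Affymetrix marks as open to cross-hybridization. The other 2 probe sets of Bik lay below the array medians on every array and measured 0.05 and 0.20 in double against wt.

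Bid (chromosome 6) encodes the BH3-only protein that caspase-8 cleaves, linking death receptors to the mitochondrion. It measured 7.25, 7.14 and 7.23 in the double mutants, 7.32, 7.24 and 7.46 in acd, 7.17, 7.23 and 7.44 in p53 and 7.15, 7.36 and 7.41 in wt. On this probe set all groups overlapped, and the spread within wt (SD 0.134) exceeded the differences between genotypes. The largest was -0.13 ± 0.10 in double against acd (interval -0.34 to 0.08). That difference was -0.11 with replicate 3 as the only double mutant. A second probe set, above the array median on 6 of 12 arrays, measured -0.31 ± 0.16 in double against acd and -0.28 ± 0.16 in double against wt. Its SD was 0.05 in wt, 0.13 in acd and 0.20 in p53. In the double mutants the SD was 0.35, larger than both differences. The third, below the medians on every array, measured -0.09 and 0.07.

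**Figure D2:**
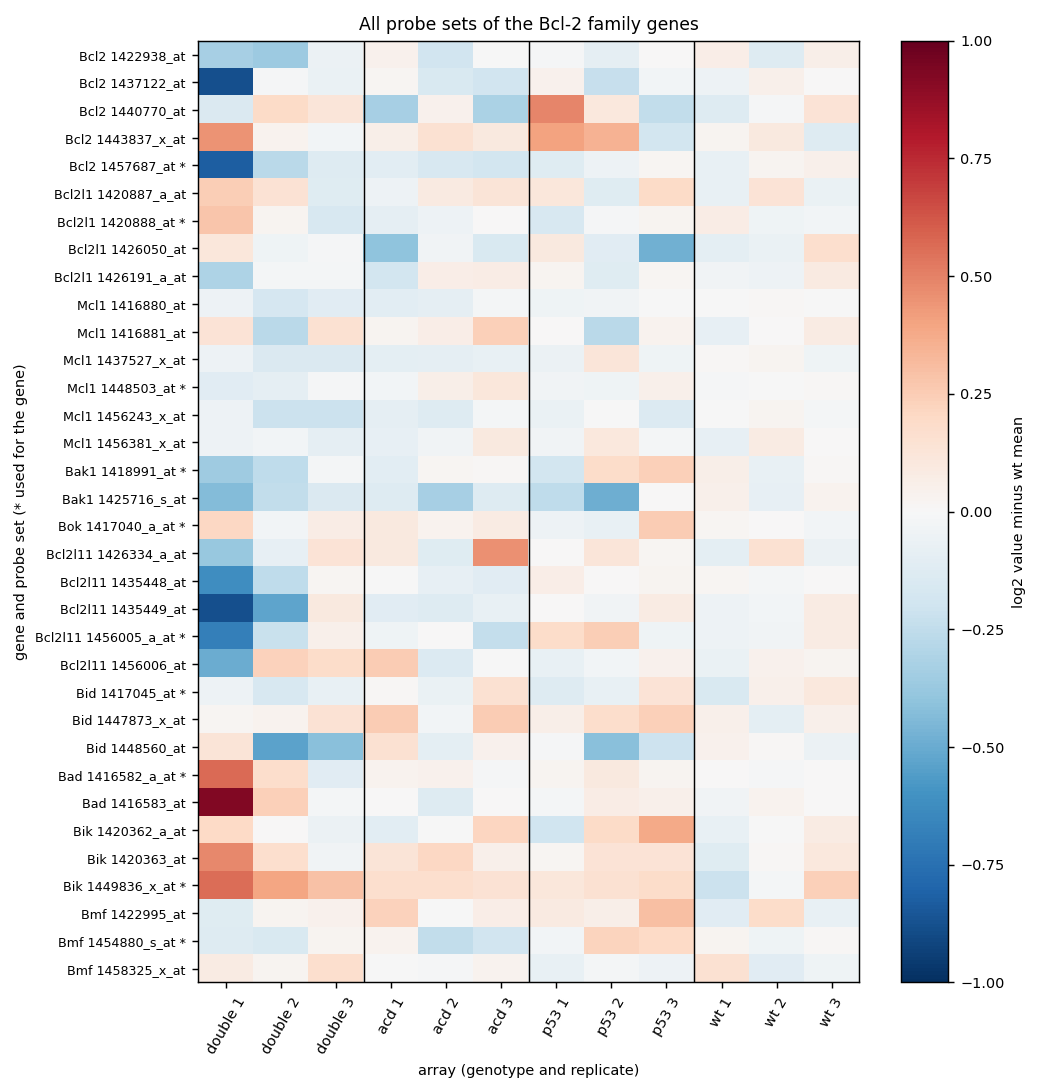
Log2 value minus the wt mean (colour) for all 34 probe sets of the 10 genes (rows, with a star at the one used for the gene) on the 12 arrays (columns). The deepest colours lie in the column of double mutant replicate 1, in Bcl2, Bcl2l11 and Bad.

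What acd does to the family while p53 is present is read from the acd and wt arrays. Of the 10 differences 5 were above 0 and 5 below, and the median of their sizes was 0.06, where all tested genes had 0.06. The intervals bound what could have been missed: the widest was that of Bcl2l11, from -0.44 to 0.25, that of Bcl2 ran from -0.46 to 0.16, and the narrowest that of Mcl1. Without acd replicate 1, which lacked the p53 target response, Bmf measured -0.22 (limma unadjusted p = 0.0495), Bcl2 -0.17, Bik 0.16, Bcl2l11 -0.12, Mcl1 0.08 and Bok 0.06, and 0 of 10 members passed. That threshold was met by 1.94% of all genes in this fit. Bmf measured 8.53 in replicate 1 and 8.25 and 8.30 in replicates 2 and 3. With all arrays its other 2 probe sets measured 0.10 and 0.01 in acd against wt, against -0.14 on the one used, so the direction was not shared. On the acd arrays the other 9 members lay between -0.24 and 0.17 of the wt mean.

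For loss of p53 alone no member passed either, and the intervals, which use the same shared spread, leave room for differences. They ran from -0.22 to 0.47 for Bcl2l11, from -0.36 to 0.26 for Bcl2 and from -0.08 to 0.39 for Bik. The smallest unadjusted p of a member in p53 against wt was 0.187, and the median size of the differences was 0.05, where all tested genes had 0.05. Bad was above wt in 3 of 3 p53 arrays, by 0.05 ± 0.13 on average, a gap that 3.42% of all genes show in that direction and 3.36% in the other. All 3 p53 arrays but 1 of 3 wt arrays were male. With sex as a term Bcl2l11 measured 0.36 and Bad turned to -0.13, and 1 of 10 members, Bcl2l11, had an unadjusted p under 0.05, a share that was 3.36% for all genes. Sex could be set apart only among the double mutant and wt arrays, where replicate 1 of each was the male one, so this term also takes up what is particular to double mutant replicate 1.

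The effect of homozygous acd where p53 is missing is read from the double mutant and p53 arrays. Bcl2, Bcl2l11, Bak1 and Bmf had unadjusted p-values under 0.05 with lower values, a direction and threshold that 5.67% of all genes met, and Bik had one with higher values (5.07%). The median size of the 10 differences was 0.19, where all tested genes had 0.12. All 5 failed the adjustment, each with an adjusted p of 0.463. On the other probe sets double against p53 measured -0.03 for Bak1, -0.17 and 0.14 for Bmf and -0.07 and 0.11 for Bik. Those of Bak1 and Bik, and the one of Bmf at 0.14, lay below the array medians on every array. For Bcl2 the other probe sets lay between -0.25 and -0.04, and for Bcl2l11 between -0.45 and -0.01. All 3 double mutant arrays were below the p53 mean for Bcl2, Bcl2l11, Bak1 and Bmf, and all 3 were above it for Bik. For Mcl1 and Bid, whose unadjusted limma p-values were 0.332 and 0.469, all 3 were below it as well. The former 5 were picked by p on these same arrays, and the share of all genes with such a pattern was not counted. Double mutant replicate 1 lay outside the range of the 9 arrays of other genotypes for 7 of 10 members, 3 higher (36.4% of all genes) and 4 lower (33.6%). Replicate 2 did so for 2 higher (22.7%) and 4 lower (25.8%), and replicate 3 for 1 higher (8.77%) and 2 lower (12.4%).

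**Figure D3:**
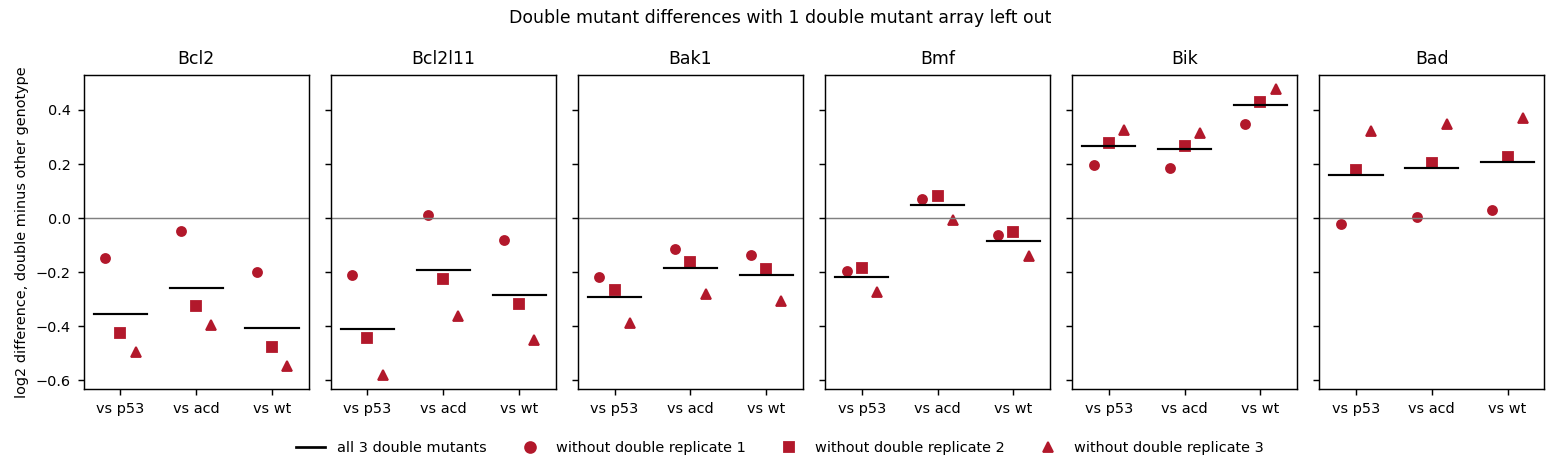
Log2 difference of double mutants minus p53, acd or wt embryos (vertical axis) for 6 members. The 3 positions of each panel are the genotypes compared with, black lines use all 3 double mutants, and red points leave out 1 of them; without replicate 1 the differences of Bcl2, Bcl2l11 and Bad shrink, and those of Bik stay above 0.

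Whether the acd difference depends on p53 is tested by the interaction, which is double minus p53 less acd minus wt. It passed for no member in limma, 0 of 10 members had an unadjusted p under 0.05, and the smallest was that of Bak1 (-0.27 ± 0.17, interval -0.63 to 0.10, limma adjusted p = 0.879). Bcl2l11 measured -0.32 ± 0.22 and Bcl2 -0.21 ± 0.20. With replicate 3 as the only double mutant these 3 measured -0.07, 0.02 and 0.07. With sex as a term 4 of 10 members had an unadjusted p under 0.05, against 23.7% of all genes, namely Bcl2 (-0.70), Bcl2l11 (-0.78), Bcl2l1 (0.44) and Bad (0.50), and none passed the adjustment. On its other probe set Bak1 measured 0.17 in the interaction, so its direction was not shared.

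**Figure D4:**
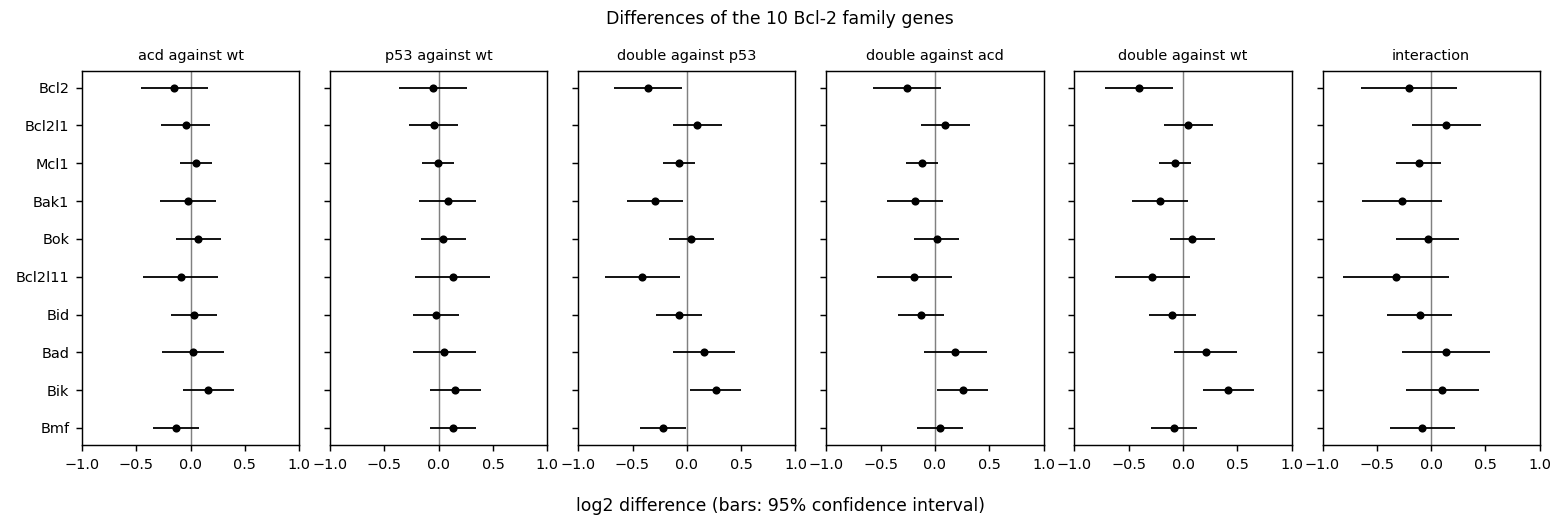
Log2 difference of each of the 10 genes (points) with its 95% confidence interval (bars) in the 6 comparisons. Intervals that leave out 0 are those of Bcl2, Bak1, Bcl2l11, Bik and Bmf in double against p53, Bik in double against acd, and Bcl2 and Bik in double against wt, before any adjustment over genes.

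The genes around the family gave the same count. Of 80 listed genes 68 were tested and 0 passed in each of the 6 comparisons. At an unadjusted p under 0.05, 4 (5.88%) did in double against p53 and 4 in double against acd, where all genes had 10.7% and 12.6%. In double against wt 3 did (4.41%), where all genes had 11.1%, in the interaction 1 (1.47%; all genes 3.93%), and in acd against wt and p53 against wt 0 (all genes 1.77% and 0.726%). Of the listed p53 targets of the family, Bbc3, the gene of Puma, measured 6.87, 6.86 and 6.99 in the double mutants, 7.14, 7.18 and 7.15 in acd, 7.26, 7.08 and 7.33 in p53 and 7.16, 7.12 and 7.09 in wt. The double mutants were below all other arrays, and the difference was -0.31 ± 0.08 against p53 (limma adjusted p = 0.463). Pmaip1, the gene of Noxa, ran from 5.75 to 7.90 within the double mutants alone. Bax was not analysed here. Of the other Bcl-2 relatives 10 of 16 were tested, and Bnip3, a mitophagy receptor induced by low oxygen, had the smallest p (0.40 ± 0.14 in double against p53, adjusted p = 0.463). Of the apoptosome and caspase genes 15 of 17 were tested, with a median of 0.00 in double against p53 and 0 unadjusted p-values under 0.05 in any comparison. Of the outer membrane partners 10 of 10 were tested, and Mfn1 and Mfn2, which fuse mitochondria, measured -0.21 ± 0.08 against p53 and -0.23 ± 0.10 against acd in double mutants (adjusted p 0.463 and 0.384). Of the protein-level regulators 16 of 16 were tested, and of the death receptor genes 4 of 7, with 0 unadjusted p-values under 0.05 in any comparison. Of 11 transcription factors known to act on member genes 11 were tested, and Mitf, which activates Bcl2 in melanocytes, measured -0.41 ± 0.14 in double against wt (adjusted p = 0.447).

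As Bik had the smallest p of the members, the genes most like it over the 12 arrays were listed by a fixed rule. These were Pcp4l1, Rdm1, Igha, Uba7 and Ccdc184, with correlations of 0.925 to 0.893, and after the genotype means were subtracted Misp, Dnajc5b, Map2k3os, Fgd2 and Vsig10l, with 0.933 to 0.891. The 12 arrays share their genotypes and the arrays that stand apart, so these values describe the arrays and carry no test.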

How the data were processed

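The authors deposited log2 expression values per probe set, made from scanner files with justRMA, as the design text of the series states. They picked genes in BRB-ArrayTools 4.4.0. RNA was labelled from 250 ng per array, per the labels' protocols. RMA makes the arrays' distributions near equal, so a change in total RNA cannot be seen. For arrays, the number of samples limits the precision. No signal over background was given.

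Genes were named from the platform annotation, which gave 1 symbol for 34945 probe sets, several for 932 and did not list 9160 beside 64 controls. All 10 members matched a RefSeq table of GRCm38.p6 by gene identifier. A gene was its highest-mean probe set, and had to exceed an array's 40th percentile on 3 arrays or more. The test was limma (3.58.1, R 4.3.3) with a mean per genotype over 12 arrays (8 residual degrees of freedom), eBayes and two-sided Benjamini-Hochberg adjusted p-values. The 4 genotypes shared a single spread per gene. Where a gene varied most in double mutants, their intervals are too narrow and those between the other genotypes too wide. The test was checked on simulated data in which all genotypes had the same spread and only acd arrays were changed. That check does not cover comparisons of the double mutants, which varied more than the other genotypes. The members, lists and alternatives were chosen with earlier results of these data known. Named genes were the members, Acd, and up to 4 genes of each list by smallest p; Ccng1 and Cdkn1a were named after their values were seen. Replicates are called biological in the labels, and litters are not given, so p-values measure the spread between these arrays. Of the 18 pairs of arrays with the same replicate number in different genotypes, 7 had deviations correlated above 0.1 (-0.23 to 0.39). Among double, acd and p53 arrays the pairs of replicates 2 and 3 had 0.13 to 0.39. The pairs of these replicates with wt lay below 0. As the labels state no pairing, the numbers were not taken to pair arrays, and a fit with them as a block is given below.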

Additional observations from a re-analysis of the deposited data

How the results depend on the processing

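The number of members that passed was 0 in acd against wt, p53 against wt and the interaction under every alternative run. In the comparisons of double mutants it depended on the double mutant arrays. With 1 array left out at a time it ran from 0 to 2 in double against p53, from 0 to 1 in double against acd and from 0 to 3 in double against wt, the higher values all without double mutant replicate 3. Bcl2 and Bcl2l11 then passed against p53, Bad against acd, and Bcl2, Bad and Bik against wt, while 1756, 1876 and 1646 of all genes passed, against 1, 0 and 2 with all arrays. With array weights 2 members, Bcl2 (-0.27) and Bik (0.42), passed in double against wt; these weights gave double mutant replicates 1, 2 and 3 values of 0.068, 1.61 and 0.246. All genes passing then numbered 122, 1774 and 1805 in the 3 comparisons. With the replicate block no member passed, and the smallest adjusted p was 0.368 (Bik, double against acd). Elsewhere the replicate numbers were taken only as names of the arrays. Of 1598 recomputed member differences, 8 passed, 0 passed with the sign turned, and 1509 moved by less than the SD within genotypes. Many of these could not move. The replicate block, the filters and the variance options leave the difference itself unchanged, as does leaving out an array of a genotype not compared. The count of 1509 is therefore no measure of stability. Settings chosen after seeing the data were sex as a term, under which Bcl2 and Bcl2l11 measured -0.60 and -0.64 in double against p53 (adjusted p 0.0896 each), and double mutant replicate 3 as the only double mutant, assumed to vary like the other groups, under which Bad turned to -0.17, -0.14 and -0.12 and Bcl2l1 to -0.11, -0.11 and -0.16 against p53, acd and wt. Bik did not pass the filter at the 60th percentile, and Bcl2l1 did not pass it at the 40th when read by its most variable probe set. The number of arrays, 3 per genotype, limits the precision to the intervals given.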
